A study of Mus musculus with 24 samples.

Results

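The interaction of radiation and olaparib was measured as the radiation response of tumours that also received olaparib minus the radiation response of tumours that did not. All 24 of the 24 tumours in the series entered it, grouped by the letters of their coded identifier, 6 in each of 4 treatment arms. Tumours grew from about 1000000 injected cells of SCC7, a squamous cell carcinoma line of the mouse, placed under the skin of the flank of female C3H mice aged 6 to 8 weeks, and whole tumours were sequenced. The injected cells were either a negative control with an empty vector (NC) or overexpressors of miR-21-5p, a microRNA (OE), so each arm holds 3 NC and 3 OE tumours. At a mean volume of about 300 cubic millimetres, mice were assigned to sham treatment (the sham arm), X-rays to the tumour alone, under lead shielding, at 8 Gy per day on 3 days (IR), olaparib injected into the abdomen at 50 mg/kg (olaparib), or both (IR+olaparib), with each olaparib dose 2 h before irradiation and a further dose on the day after the last irradiation. All 4 arms share the host strain, the cell line and the collection of whole tumours, in which fewer cells of a type and less RNA per cell cannot be told apart. The 8 groups by name are NC sham, NC IR, NC olaparib, NC IR+olaparib and the same 4 for OE, and single tumours are named by their coded identifier, such as I-739 in the NC IR group. Nothing in the labels says whether the injected OE or NC cells were a clone or a pool.

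X-rays break both strands of DNA, and p53 then switches on genes such as Cdkn1a that stop the cell cycle. Olaparib inhibits the PARP enzymes, which bind DNA breaks, mark proteins there with ADP-ribose and help repair of single-strand breaks and alternative end joining, an error-prone way of rejoining double-strand breaks. Because unrepaired single-strand breaks become double-strand breaks at replication forks, PARP inhibitors are studied as sensitizers to radiation, and the interaction contrast asks whether the transcript response to X-rays differs when olaparib is present.

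The coded identifier and the written treatment and batch labels place 5 tumours in the same group and 19 in different ones, with 8 differing in cells, 8 in radiation and 16 in olaparib. The cell type label reads OE for all 24. Groups follow the code throughout, and since that reading was preferred after earlier results of these data had shown p53 targets to follow it, p-values for radiation are not independent of the reading. Libraries held 37099055 to 40004502 counts, and 16560 of 27368 genes were tested with edgeR's quasi-likelihood test. The labels do not say that tumours of a group were independent experiments, so p-values measure the spread between these tumours. Several tumours stood apart. In EIO-744 (OE IR+olaparib) the fibroblast marker list took 11.7% of counts, against a median of 0.854% in its arm, and in I-732 (NC IR) the skeletal muscle list took 2.36%, against a median of 0.0707%. I-739 (NC IR) had 332 CPM of Cdkn1a (CPM is a gene's counts per 1000000 after TMM scaling) where the 2 other NC IR tumours had 705 CPM and 719 CPM, and it had the lowest macrophage share of its arm, at 0.507% of counts. Keratins and other defining squamous markers were found at low levels in most tumours: Krt5 reached at most 3.96 CPM in 19 of 24, and 9.50 CPM, 33.0 CPM, 51.7 CPM, 89.2 CPM and 107 CPM in ES-741 (OE sham), S-761 (NC sham), I-736 (NC IR), IO-731 (NC IR+olaparib) and EIO-744.

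No gene was called for the interaction. At a Benjamini-Hochberg adjusted p below 0.05, edgeR called 0 of 16560 genes (0%), and the smallest adjusted p was 0.987. An unadjusted p below 0.05 was reached by 588 genes, or 3.55% of those tested. limma voom with sample quality weights also called 0 genes (0%), and DESeq2 called 6 of 26990 with an adjusted p (0.0222%). The median interaction over all tested genes was 0.02 on the log2 scale. A count of 0 does not show that the responses were equal. The 95% interval of the interaction had a median half-width of 0.63 on the log2 scale, and of 0.50 for the 13235 genes with a mean of at least 1 CPM. That interval lay wholly within 1 log2 unit of 0, that is within a doubling or a halving, for 9239 genes (55.8%), and for 9201 (69.5%) of those at 1 CPM or more. For the other genes, differences larger than that were not excluded by these tumours.

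The interaction within each set of cells was also without called genes. In NC tumours edgeR called 0 genes (0%) with 920 at an unadjusted p below 0.05, and in OE tumours 0 genes (0%) with 1522. The test of the difference between OE and NC interactions called 0 genes (0%), with 1844 at an unadjusted p below 0.05 (11.1% of those tested) and a smallest adjusted p of 0.415. Three-tumour removal, of I-732 (NC IR), S-761 (NC sham) and EIO-744 (OE IR+olaparib), lowered these edgeR counts. They were then 668 in NC tumours, 603 in OE tumours and 783 for the difference. Within one set of cells the median half-width was 0.71 for genes at 1 CPM or more.

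The radiation responses themselves were large in both settings and ran in the same directions. Without olaparib, 688 genes were higher (4.15% of those tested) and 652 lower (3.94%) in IR than in sham tumours. Under olaparib, 2434 genes were higher (14.7%) and 1682 lower (10.2%) in IR+olaparib than in olaparib tumours. The 2 responses share no tumour. Of the genes called, 1027 were called in both, which is 76.6% of those called without olaparib and 25.0% of those called under it, and all 1027 changed in the same direction, 547 higher and 480 lower. A further 3089 genes were called under olaparib and not without it, and 2966 of these (96.0%) had the same sign without olaparib. The share of all tested genes with the same sign in both was not counted, so the 96.0% has no share beside it. Across genes the log2 fold changes of the 2 responses correlated at r = 0.58, and at r = 0.69 over genes at 1 CPM or more. This describes genes, which share libraries and are not independent replicates. The median size of the log2 fold change over all genes was 0.29 without and 0.36 under olaparib, with median standard errors of 0.21 in both. Among the 1027 genes called in both, the change was farther from 0 under olaparib for 642 (62.5%), and the median size was 0.76 without and 0.83 under olaparib. Over all 16560 tested genes, the change was farther from 0 under olaparib for 10456, so the 642 genes describe no trait of the genes called in both.

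**Figure D1:**
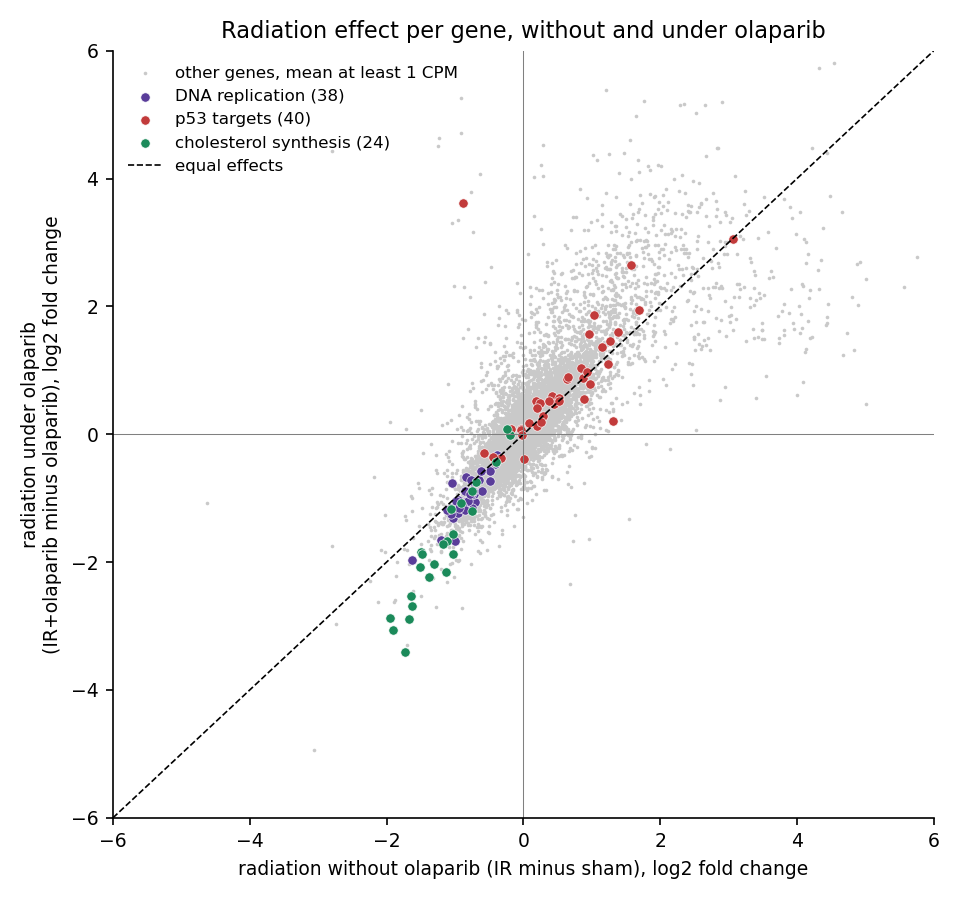
Radiation response of each gene with a mean of at least 1 CPM, as the edgeR log2 fold change without olaparib (horizontal) and under olaparib (vertical), with 3 lists coloured and the line of equal responses dashed. The 2 responses correlate at r = 0.69 over the 13235 genes, with scatter about the line. Of the 24 cholesterol synthesis genes (green), 22 lie below the line, and 26 of the 13235 genes fall outside the axes.

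The numbers of genes called for the 2 radiation responses moved with single tumours. Without I-739 (NC IR), 3324 genes were called for radiation without olaparib and 4771 for radiation under it. Without EIO-744 (OE IR+olaparib) the order turned, with 3150 genes called without olaparib and 2702 under it. The count under olaparib was the higher one for 23 of the 24 tumours left out in turn. Counts ranged from 314 (without EI-742 (OE IR)) to 3324 without olaparib, and from 2245 (without O-722 (NC olaparib)) to 5931 (without EIO-749 (OE IR+olaparib)) under it. With the written labels in place of the code, both responses had 0 called genes, with unadjusted p below 0.05 for 1628 genes without olaparib and 4150 under it. With limma voom and sample quality weights the order also turned, with 7124 genes called without olaparib and 6072 under it.

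**Figure D2:**
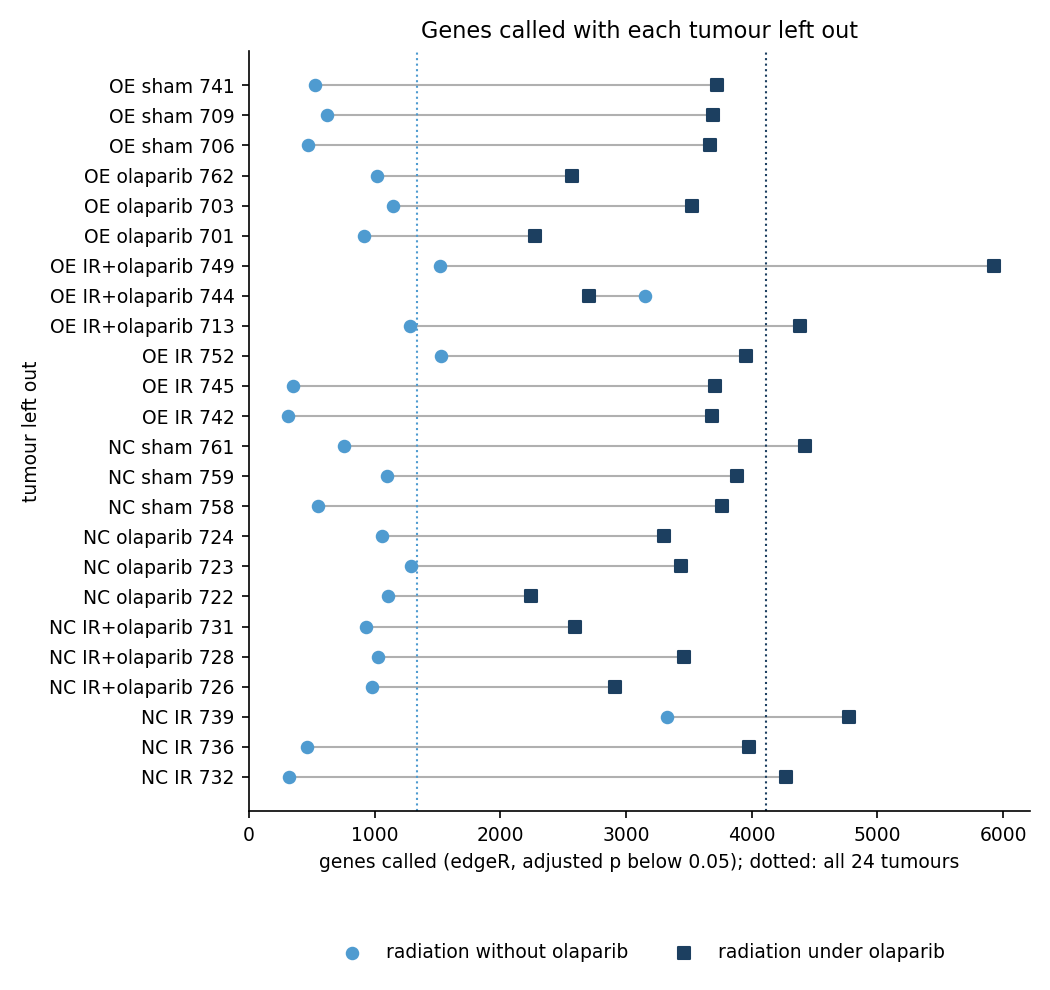
Number of genes called by edgeR for radiation without olaparib (circles) and under olaparib (squares) with each tumour left out in turn, with dotted lines at the 1340 and 4116 genes called from all 24 tumours. The order is reversed only without EIO-744 (3150 and 2702), and the highest count without olaparib, 3324, is the one without I-739.

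Genes that p53 switches on rose with radiation in both settings. Cdkn1a (chromosome 17, 29090979 to 29100722, mm10), which encodes the cell cycle inhibitor p21, ran from 197 through a median of 286 to 300 CPM in sham tumours and from 332 through 712 to 764 CPM in IR tumours. In olaparib tumours it ran from 184 through 279 to 342 CPM, and in IR+olaparib tumours from 682 through 751 to 765 CPM. Irradiated tumours lay above unirradiated ones without overlap in both settings, and I-739 (NC IR) was the lowest of the irradiated ones. The log2 fold change was 1.27 ± 0.17 (SE) without olaparib (edgeR adjusted p = 0.0016) and 1.45 ± 0.17 under it (edgeR adjusted p = 0.00011). The interaction was 0.18 ± 0.24, with a 95% interval from -0.32 to 0.68.

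Of the 40 tested p53 targets, 14 were higher and 2 lower without olaparib, and 22 were higher and 2 lower under it. Calls also rose over all genes, from 4.15% higher and 3.94% lower without olaparib to 14.7% higher and 10.2% lower under it. The median log2 fold change of the p53 targets was 0.44 without and 0.52 under olaparib, beside 0.02 and 0.05 for all genes. The median interaction of the list was 0.11, between 0.07 and 0.17 with any tumour left out. In all, 14 members were called in both settings, each in the same direction. The list had been seen in these data before and is no independent evidence of its direction. Mdm2, whose product degrades p53, rose by 1.24 ± 0.27 without and 1.10 ± 0.27 under olaparib (edgeR adjusted p = 0.014 and 0.010). Ccng1, cyclin G1, rose by 0.84 ± 0.14 and 1.03 ± 0.14, and the death receptor gene Fas by 1.39 ± 0.24 and 1.60 ± 0.24. Gdf15, a secreted stress cytokine, rose by 3.07 ± 0.55 and 3.06 ± 0.55, and Bbc3, the pro-apoptotic PUMA gene, by 0.87 ± 0.23 and 0.88 ± 0.23. The interactions of these 5 genes ran from -0.13 (Mdm2, 95% interval -0.93 to 0.66) to 0.21 (Fas, -0.49 to 0.91).

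A few p53 targets had an unadjusted interaction p below 0.05, 4 of 40 where all genes had 3.55%. Bax, a pore-forming apoptosis gene, ran from 97.6 through 109 to 167 CPM in sham, 105 through 141 to 159 CPM in IR, 89.4 through 95.9 to 109 CPM in olaparib and 128 through 140 to 156 CPM in IR+olaparib tumours. Sham and IR tumours overlapped, and IR+olaparib tumours lay above all olaparib tumours. Its interaction was 0.34 ± 0.14 (unadjusted p = 0.028), with 0.70 in NC and -0.03 in OE tumours, and it was not called. Dcxr, a carbonyl reductase gene on the list, had an interaction of 0.83 ± 0.37 (unadjusted p = 0.038). I-739 (NC IR) held 12.7 CPM of Dcxr, and the other 5 IR tumours held 32.4 to 50.4 CPM. Without S-761 (NC sham) the interactions of Bax and Dcxr were 0.22 and 0.56. Perp had the largest interaction on the list, 4.51. It stood at 44.5 CPM in IO-731 (NC IR+olaparib), 34.3 CPM in EIO-744 (OE IR+olaparib), 24.6 CPM in I-736 (NC IR) and 12.5 CPM in S-761. All other tumours held at most 6.79 CPM of Perp. Krt5 was highest in the same tumours.

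Genes of DNA replication fell with radiation in part of their list in both settings, and mitosis genes were called mainly under olaparib, where all genes also had more calls (10.2% lower against 3.94%). Mki67, a marker of cycling cells, ran from 365 through 412 to 437 CPM in sham and from 72.4 through 181 to 380 CPM in IR tumours. It ran from 377 through 430 to 459 CPM in olaparib and from 21.6 through 144 to 233 CPM in IR+olaparib tumours. I-739 (NC IR), at 380 CPM, lay among the sham tumours, so those arms overlapped, while IR+olaparib tumours lay below all olaparib tumours. The log2 fold change was -0.96 ± 0.41 without olaparib (edgeR adjusted p = 0.14) and -1.59 ± 0.42 under it (edgeR adjusted p = 0.014). The interaction was -0.63 ± 0.58, with an interval from -1.83 to 0.58, and it was -0.11 without I-739. Of 36 mitosis and spindle genes 1 was lower without olaparib and 16 under it, with medians of -0.82 and -1.16. Of 38 DNA replication genes 11 were lower without and 31 under olaparib, with medians of -0.85 and -1.04, and none of the 38 had an unadjusted interaction p below 0.05. The median interaction of these 2 lists was -0.33 and -0.19. Without I-739 both medians changed sign, to 0.06 and 0.15. Without EIO-744 (OE IR+olaparib), 32 mitosis and spindle genes were lower without olaparib and 30 under it, and 35 DNA replication genes were lower without olaparib and 26 under it. Over single tumours left out, the DNA replication count ran from 0 (without I-736) to 35 without olaparib and from 9 (without O-722) to 36 (without EIO-749) under it. The mitosis and spindle count ran from 0 to 32 without olaparib and from 5 (without IO-731) to 30 under it.

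**Figure D3:**
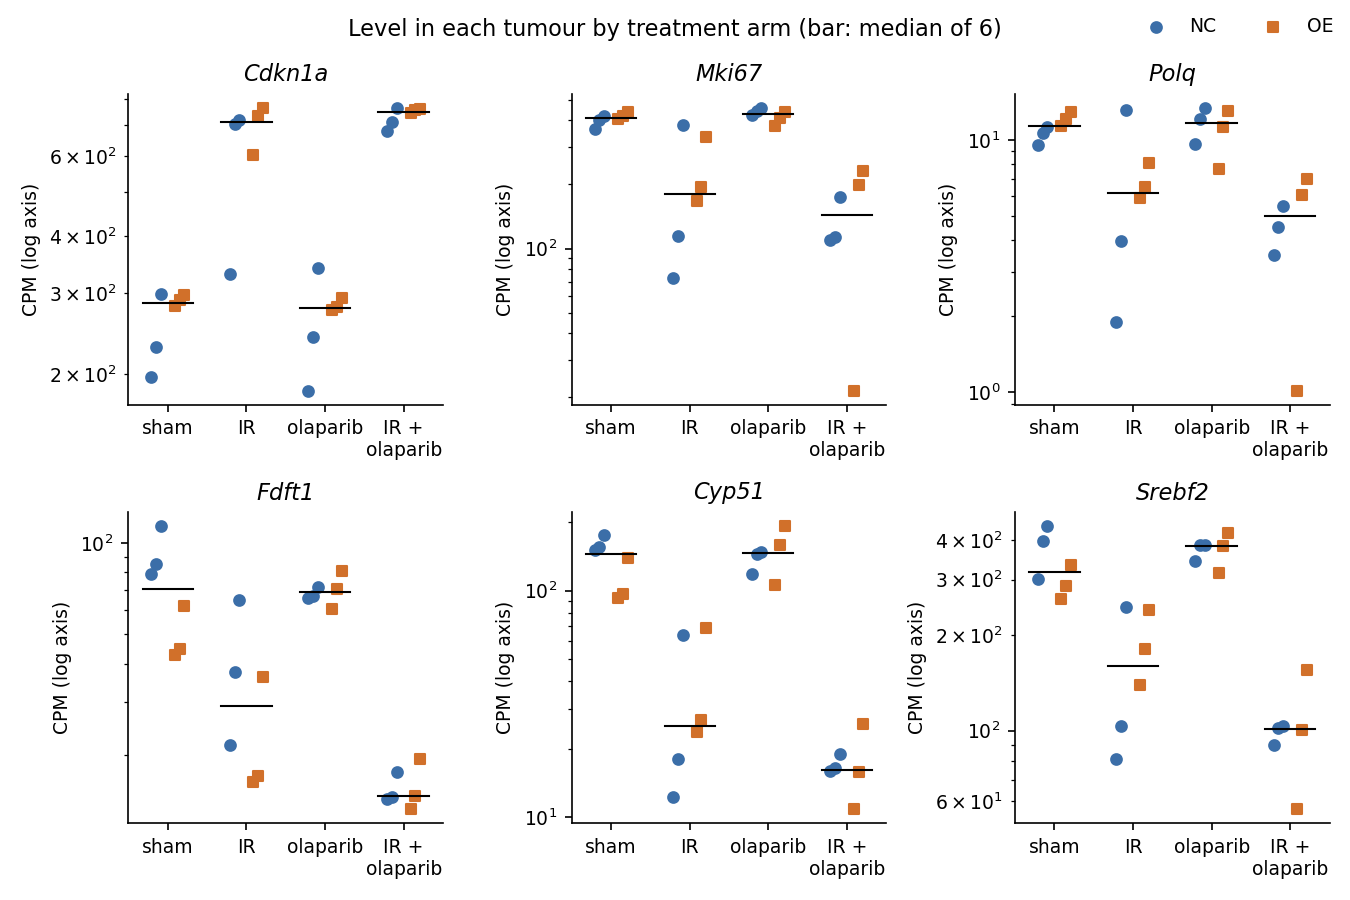
CPM of 6 genes in each tumour on log axes, by treatment arm, with NC tumours as circles, OE tumours as squares and the median of 6 as a bar. Cdkn1a lies at 332 CPM or more in all irradiated tumours, I-739 (NC IR) lies among unirradiated tumours for Mki67 (380 CPM) and Polq (13.2 CPM), and Fdft1, Cyp51 and Srebf2 are lower in IR+olaparib than in olaparib tumours without overlap. Cyp51 and Srebf2 are also lower in IR than in sham tumours without overlap, and Fdft1 is not.

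Of the alternative end joining genes, 1 of 20 was lower without olaparib and 11 of 20 under it, and none was called for the interaction. Polq encodes polymerase theta, the enzyme that defines this route. It ran from 9.51 through 11.3 to 12.9 CPM in sham, 1.90 through 6.18 to 13.2 CPM in IR, 7.65 through 11.7 to 13.4 CPM in olaparib and 1.01 through 5.00 to 7.02 CPM in IR+olaparib tumours. The highest IR tumour, I-739 (NC IR), lay above every sham tumour, and IR+olaparib tumours lay below every olaparib tumour. The log2 fold change was -0.77 ± 0.39 without olaparib (edgeR adjusted p = 0.21) and -1.28 ± 0.40 under it (edgeR adjusted p = 0.027), and the interaction was -0.51 ± 0.55, with an interval from -1.66 to 0.65. Without I-739 the interaction of Polq was 0.06, and radiation without olaparib changed it by -1.34 on the log2 scale (edgeR adjusted p = 0.012). Lig3, the ligase that seals alternative joins, ran from 32.1 through 49.9 to 54.1 CPM in sham, 29.8 through 34.5 to 47.2 CPM in IR, 46.2 through 48.5 to 54.1 CPM in olaparib and 28.1 through 30.9 to 38.7 CPM in IR+olaparib tumours. It changed under olaparib by -0.62 ± 0.13 (edgeR adjusted p = 0.0053), stood at -0.35 ± 0.13 without it (edgeR adjusted p = 0.095), and had an interaction of -0.27 ± 0.19.

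The 20 alternative end joining genes had median log2 fold changes of -0.28 without and -0.44 under olaparib, beside 0.02 and 0.05 for all genes, and a median interaction of -0.12, which was 0.02 without I-739 (NC IR). Without that tumour 11 members were lower without olaparib and 13 under it. Of all genes, 3.94% were lower without olaparib and 10.2% under it, and the counts of the repair lists stand beside these shares. Of 28 homologous recombination genes 6 and 13 were lower, but 21 and 15 without EIO-744 (OE IR+olaparib), and 5 under olaparib without IO-726 (NC IR+olaparib). Brca2, a tumour suppressor gene of this repair route, changed by -1.04 ± 0.31 and -1.22 ± 0.31 with interaction -0.18 ± 0.44, which was 0.22 without I-739. Of 21 classical end joining genes 3 were lower without olaparib, and 2 were higher and 5 lower under it, where 14.7% of all genes were higher. Fanconi anaemia genes gave 2 and 6 lower of 19, base excision repair genes 5 and 8 lower of 18, and damage checkpoint genes 4 and 11 lower of 15. Without olaparib the Fanconi anaemia count was 9 without EIO-744 and the damage checkpoint count 12 without I-739. Aplf, a histone chaperone of end joining, was the member of these repair lists with the smallest unadjusted interaction p (0.00895), at 0.45 ± 0.15. It ran from 5.73 to 9.73 CPM in IR and from 8.82 to 10.2 CPM in IR+olaparib tumours, beside 8.61 to 10.5 CPM in sham and 6.80 to 9.32 CPM in olaparib tumours, and it was not called.

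Of 23 genes for PARP enzymes and ADP-ribose turnover none was called without olaparib, and 1 was higher and 2 lower under it, where 14.7% of all genes were higher and 10.2% lower. Members ran from -0.55 to 1.11 without and from -0.81 to 1.48 under olaparib. Their median log2 fold change was 0.08 without and 0.01 under olaparib, and the interaction interval lay within 1 log2 unit of 0 for 21 of 23. Parp1, the main target, ran from 121 through 130 to 143 CPM in sham, 63.3 through 85.7 to 123 CPM in IR, 70.4 through 124 to 140 CPM in olaparib and 56.9 through 74.4 to 88.0 CPM in IR+olaparib tumours. Its log2 fold change was -0.55 ± 0.18 without olaparib (edgeR adjusted p = 0.058) and -0.66 ± 0.18 under it (edgeR adjusted p = 0.014), with interaction -0.11 ± 0.25 (-0.63 to 0.40). Parp2 had an interaction of -0.02 ± 0.16 (-0.35 to 0.32) and Parp3 of 0.10 ± 0.20 (-0.32 to 0.52). Abcb1a, which encodes the efflux pump P-glycoprotein that carries olaparib out of cells, rose by 1.26 ± 0.20 without and 0.97 ± 0.20 under olaparib (edgeR adjusted p = 0.0030 and 0.0048), with interaction -0.29 ± 0.28.

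Cholesterol synthesis genes had the lowest median interaction of the 28 pathway lists, although no member was called for it. These genes encode the enzymes of the mevalonate and sterol pathway, which cells switch on through the factor SREBP2 (gene Srebf2) when membrane sterol is low. Of 24 tested members 20 were lower without olaparib and 21 under it, and 20 of these were called in both. The shares of all genes called lower were 3.94% without olaparib and 10.2% under it. The median log2 fold change of the list was -1.16 without and -1.86 under olaparib. The change was farther from 0 under olaparib for 22 of 24, where it was for 10456 of all 16560 genes. The median interaction was -0.54, beside 0.02 for all genes. It was below 0 for 22 of 24, where 46.5% of all genes lay below 0, and below -0.5 for 14 of 24, where 8.54% of all genes did. An unadjusted p below 0.05 was reached by 10 of 24, beside 3.55% of all genes. The members were measured in the same tumours and are not independent replicates, so these counts describe the list and test nothing. The list was written with earlier results of these data known, and it is singled out here for its lowest median. Leaving out single tumours moved the median between -0.69 (without I-732 (NC IR)) and -0.35 (without I-739 (NC IR)), and it was -0.56 without I-732, S-761 (NC sham) and EIO-744 (OE IR+olaparib). The median was -0.17 in NC tumours, with 15 of 24 below 0, and -0.81 in OE tumours, with 24 of 24 below 0. No member was called for the difference between OE and NC. The mean log2(CPM + 0.5) of the list was 4.07 in I-732, 4.38 in I-736 (NC IR) and 5.21 in I-739, against 4.26 to 4.33 in the 3 NC IR+olaparib tumours. It was 4.67, 4.84 and 5.27 in the OE IR tumours and 4.43, 3.83 and 4.63 in the OE IR+olaparib tumours. The 2 OE irradiated groups did not overlap on this scale, and the 2 NC ones did. The unirradiated tumours enter the interaction as well. The list stood at 5.64, 5.99 and 5.61 in OE sham and at 6.09, 6.41 and 5.77 in OE olaparib tumours. In NC tumours it stood at 6.19, 6.13 and 6.35 in sham and at 6.10, 5.96 and 6.03 in olaparib tumours.

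**Figure D4:**
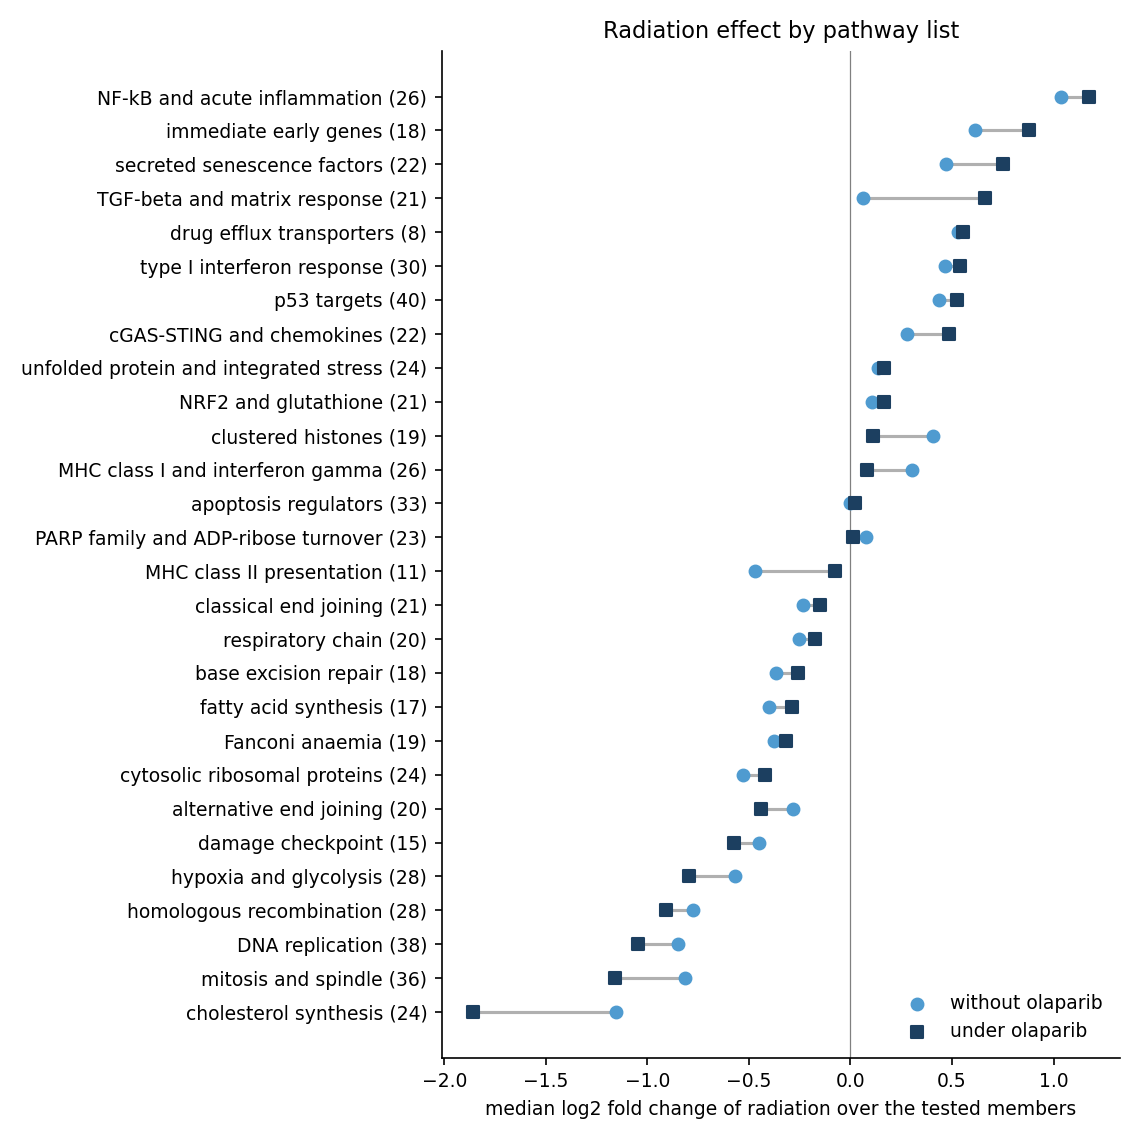
Median log2 fold change of radiation over the tested members (number in brackets) of each of 28 pathway lists, without olaparib (circles) and under olaparib (squares). Cholesterol synthesis is lowest in both settings, at -1.16 and -1.86, and the p53 targets are at 0.44 and 0.52.

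Fdft1 (chromosome 14, 63145150 to 63181687, mm10) encodes squalene synthase, the first step that leads only to sterols. It ran from 42.7 through 70.5 to 114 CPM in sham, 16.3 through 29.0 to 64.7 CPM in IR, 60.4 through 68.9 to 81.1 CPM in olaparib and 13.3 through 14.6 to 19.4 CPM in IR+olaparib tumours. Sham and IR tumours overlapped, with I-732 (NC IR) the highest of the IR tumours, and IR+olaparib tumours lay far below olaparib tumours. It changed by -1.13 ± 0.23 and -2.15 ± 0.24 (edgeR adjusted p = 0.0098 and 8.06e-05). The interaction was -1.02 ± 0.32 (-1.69 to -0.35, unadjusted p = 0.0050), between -1.19 (without I-736 (NC IR)) and -0.78 (without I-732).

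Cyp51, the lanosterol demethylase, ran from 92.4 through 145 to 175 CPM in sham, 12.3 through 25.4 to 68.2 CPM in IR, 106 through 146 to 192 CPM in olaparib and 10.9 through 16.2 to 25.8 CPM in IR+olaparib tumours. It changed by -1.91 ± 0.34 and -3.06 ± 0.36 (edgeR adjusted p = 0.0057 and 0.00011), with interaction -1.15 ± 0.47 (-2.14 to -0.16, unadjusted p = 0.026), which was -0.62 without I-739 (NC IR). Sqle, squalene epoxidase, changed by -1.68 ± 0.41 and -2.89 ± 0.43, with interaction -1.22 ± 0.56, which was -0.75 without I-739. EIO-744 (OE IR+olaparib) held 3.61 CPM of Sqle, the lowest level in any tumour, and the 5 other IR+olaparib tumours held 23.6 to 42.0 CPM. Srebf2 itself ran from 261 through 317 to 442 CPM in sham, 81.5 through 161 to 245 CPM in IR, 314 through 384 to 420 CPM in olaparib and 56.5 through 101 to 155 CPM in IR+olaparib tumours. It changed by -1.03 ± 0.24 and -1.88 ± 0.25, with interaction -0.85 ± 0.34 (-1.57 to -0.13), which was -0.53 without I-739. The other members were looked at after the list's median was known. Among them, Idi1, Fdps, Stard4, Msmo1 and Sc5d had intervals wholly below 0, with interactions from -1.05 ± 0.50 (Idi1) to -0.54 ± 0.22 (Sc5d). Insig1, which holds back SREBP processing, had -0.38 ± 0.21 (-0.83 to 0.06). Ebp (0.18 ± 0.14) and Tm7sf2 (0.33 ± 0.28) were the members above 0.

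**Figure D5:**
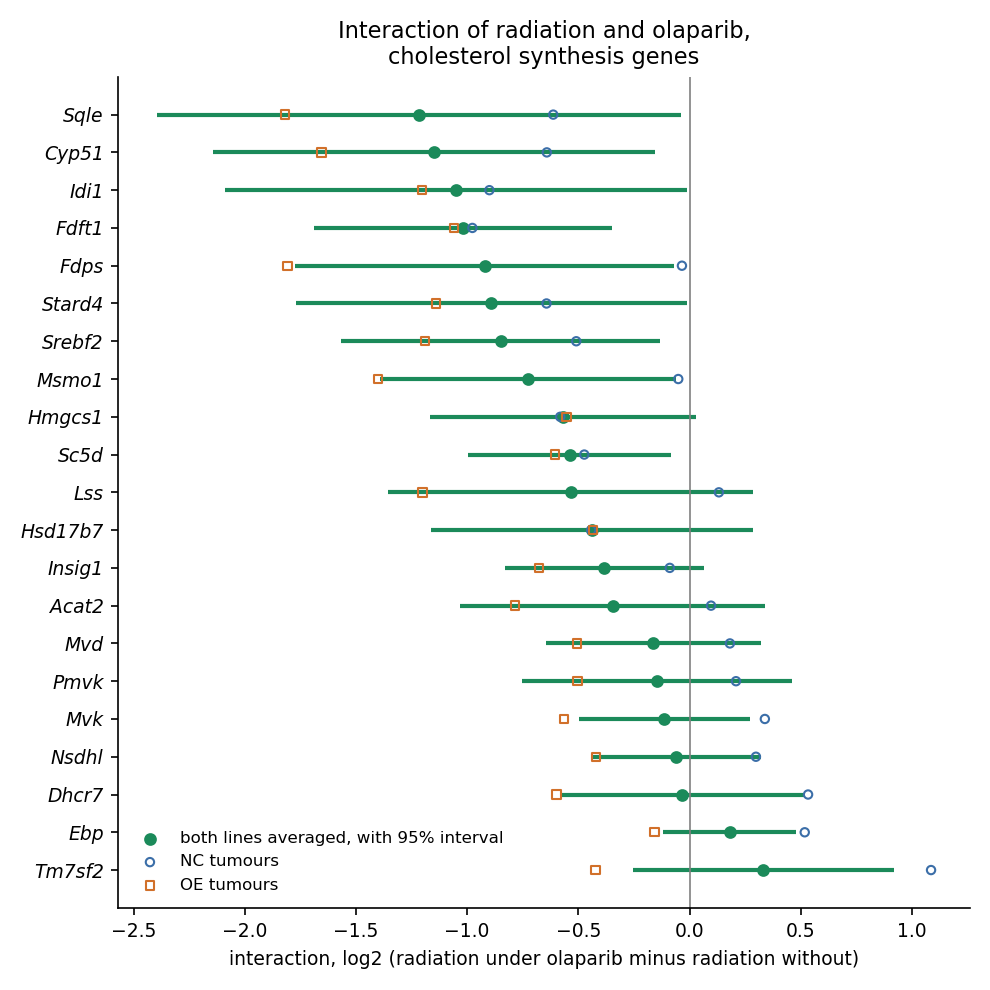
Interaction of radiation and olaparib for 21 of the 24 cholesterol synthesis genes on the log2 scale, with 95% intervals for the average over both sets of cells (filled points) and the values in NC (open circles) and OE tumours (open squares). The average lies below 0 for 19 of the 21 drawn and the interval wholly below 0 for 9, and no gene was called after adjustment.

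Since these genes moved together, their promoters were searched for the sterol regulatory element, to which SREBP2 binds, written as TCACNCCAC on either strand in the window from 250 bases before to 50 bases after each RefSeq start (GRCm38.p6, the mm10 assembly). Windows on 1 chromosome were left out for the list's genes and kept for all genes. A window was used for 17 of the list's genes and matched in 1, Hmgcs1. Of all 27025 genes with a window, on any chromosome, 1.44% matched. The Hmgcs1 window (chr13:119690101-119690400, plus strand) is shown because it holds the match, in capitals, and begins at its upstream end:

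Hmgcs1: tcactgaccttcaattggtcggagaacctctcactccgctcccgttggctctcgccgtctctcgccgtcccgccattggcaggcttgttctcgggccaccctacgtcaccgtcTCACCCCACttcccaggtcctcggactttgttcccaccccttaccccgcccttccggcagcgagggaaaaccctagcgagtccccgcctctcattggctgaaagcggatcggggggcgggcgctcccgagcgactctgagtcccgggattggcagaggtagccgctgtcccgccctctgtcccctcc

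Hmgcs1, which makes the mevalonate precursor HMG-CoA, ran from 136 through 173 to 210 CPM in sham, 34.9 through 49.8 to 92.5 CPM in IR, 150 through 199 to 251 CPM in olaparib and 41.7 through 48.7 to 51.9 CPM in IR+olaparib tumours. It changed by -1.51 ± 0.21 and -2.07 ± 0.21 (edgeR adjusted p = 0.0018 and 3.7e-05), with interaction -0.57 ± 0.29 (-1.16 to 0.03). The match describes letters in this window, and windows without one say nothing of the factor.

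Fatty acid synthesis genes, which the related factor SREBP1 controls, were closer to 0. Of 17 members 7 were lower without and 7 under olaparib, with medians of -0.40 and -0.29 and a median interaction of -0.15. Over all genes, 3.94% were lower without olaparib and 10.2% under it. Elovl6, a fatty acid elongase, had -0.90 ± 0.43 (unadjusted p = 0.049), at 7.96 through 22.7 to 42.1 CPM in IR and 11.2 through 14.5 to 18.6 CPM in IR+olaparib tumours, which overlapped, and it was -0.40 without I-739 (NC IR). Hypoxia and glycolysis genes were lower by a median of -0.57 without olaparib, with 5 of 28 called, and by -0.79 under it, with 17 called. Both counts stand beside the same 3.94% and 10.2% of all genes. Their median interaction was -0.31, between -0.42 and -0.11 with any tumour left out. Slc2a1, the glucose transporter GLUT1, ran from 111 through 185 to 341 CPM in sham, 82.0 through 117 to 198 CPM in IR, 141 through 192 to 600 CPM in olaparib and 55.4 through 64.8 to 139 CPM in IR+olaparib tumours. Its interaction was -1.02 ± 0.45 (unadjusted p = 0.037), the 600 CPM stood in O-723 (NC olaparib) alone, and the interaction was -0.54 without that tumour.

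Counts of innate immune genes called higher are given beside the share of all genes, 4.15% without and 14.7% under olaparib. Of 30 type I interferon response genes none was called without olaparib and 8 were higher under it, with medians of 0.47 and 0.54 and a median interaction of 0.16. Without EIO-744 (OE IR+olaparib) the counts were 5 and 17. Irf7, a factor that amplifies interferon production, ran from 51.7 through 149 to 281 CPM in sham, 140 through 275 to 342 CPM in IR, 67.0 through 131 to 216 CPM in olaparib and 86.6 through 382 to 481 CPM in IR+olaparib tumours. Arms overlapped in both settings, and it changed by 0.83 ± 0.31 without olaparib (edgeR adjusted p = 0.10) and 1.41 ± 0.32 under it (edgeR adjusted p = 0.0071), with interaction 0.58 ± 0.44. Ifi27, an interferon-induced membrane protein gene, was the member with the smallest unadjusted interaction p, 0.013, at 0.43 ± 0.16. Isg15 had an interaction of 0.27 ± 0.45, Ifit1 of -0.11 ± 0.54 and the chemokine gene Cxcl10 of -0.75 ± 0.63, and none of the 3 was called in either setting.

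Of 26 NF-kB and acute inflammation genes 5 were higher without and 13 under olaparib, with medians of 1.04 and 1.17. Without EIO-744 (OE IR+olaparib) these counts were 13 and 6. Lcn2, an acute-phase iron-trapping protein gene, rose by 4.21 ± 0.97 and 4.48 ± 0.97 with interaction 0.26 ± 1.26, at -4.36 ± 1.77 in NC and 4.88 ± 1.87 in OE tumours, and Saa3, an acute-phase amyloid gene, by 4.32 ± 1.13 and 5.73 ± 1.20 with interaction 1.41 ± 1.42. Without EIO-744 the interactions of Lcn2 and Saa3 were -1.11 and -1.96. Saa3 reached 4912 CPM in EIO-744, where the other IR+olaparib tumours held 12.3 to 128 CPM. Neutrophil markers gave 4 and 11 higher of 14, and macrophage markers 2 higher and 1 lower against 9 higher and 1 lower of 22. Without EIO-744 the neutrophils list had 8 members higher without olaparib and 6 under it, and without I-739 the list of macrophages and monocytes had 11 and 13. Adgre1, the macrophage marker F4/80, changed by 0.79 ± 0.33 without (edgeR adjusted p = 0.13) and 1.15 ± 0.33 under olaparib (edgeR adjusted p = 0.020), with interaction 0.36 ± 0.46. Its lowest IR level, 103 CPM, was below all sham tumours.

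T cell genes were called lower under olaparib, with wide spread between tumours. Of 19 T cell markers none was called without olaparib and 7 were lower under it, with medians of -0.55 and -1.13 and a median interaction of -0.66. Calls of lower genes also rose over all genes, from 3.94% without olaparib to 10.2% under it. The median interaction was 0.30 in NC and -1.42 in OE tumours, and no member was called for that difference. The count of 7 was 1 without O-724 (NC olaparib), 2 without EIO-744 (OE IR+olaparib) and 3 without O-722 (NC olaparib). Cd3e, a chain of the T cell receptor complex, ran from 5.40 through 20.3 to 58.7 CPM in sham, 5.63 through 14.4 to 17.8 CPM in IR, 13.4 through 28.8 to 53.8 CPM in olaparib and 3.60 through 9.31 to 20.6 CPM in IR+olaparib tumours. All neighbouring arms overlapped, and its interaction was -0.64 ± 0.67 (-2.06 to 0.77). Foxp3, the factor of regulatory T cells, had -1.30 ± 0.65 (unadjusted p = 0.060), Cd8a -0.74 ± 0.87 and Gzmb, a killer cell protease gene, -0.12 ± 0.77. Siglech, a marker of plasmacytoid dendritic cells, changed by -3.06 ± 0.69 and -4.94 ± 0.76 (edgeR adjusted p = 0.016 and 0.00088). Its levels were 0.245 to 3.47 CPM in sham, 0.0520 to 0.477 CPM in IR, 1.39 to 5.57 CPM in olaparib and 0 to 0.212 CPM in IR+olaparib tumours. Its interaction was -1.88 ± 0.95 (-3.87 to 0.12).

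Skin epithelial genes had positive interactions that rested on a few tumours, and none was called. Of the 12 genes named for the smallest unadjusted p among those with a positive interaction, at a mean of at least 1 CPM, Krt5, Krt15, Krt77, Dsp, Dmkn, Psapl1 and Trp63 belong to stratified epithelium. Krt15, a keratin of basal skin cells, stood at 0 to 2.56 CPM in sham, 0 to 2.45 CPM in IR and 0 to 0.233 CPM in olaparib tumours. In IR+olaparib tumours it stood at 0.0516, 0.721 and 14.2 CPM in NC and at 0.0530, 22.3 and 0.496 CPM in OE tumours. The high values were those of IO-731 (NC IR+olaparib) and EIO-744 (OE IR+olaparib), and the other 4 tumours of the arm overlapped with sham tumours. The fitted interaction was 9.48 ± 2.32 (unadjusted p = 0.00064), a size that depends on tumours at 0 counts and is no bound, and it moved between 5.45 (without ES-741 (OE sham)) and 10.4 with single tumours left out. Of 17 keratinocyte differentiation markers 11 had an unadjusted interaction p below 0.05, with a median of 3.13 and a median half-width of 3.95. Under olaparib 11 members were called higher, where 14.7% of all genes were. That count fell to 3 without O-722 (NC olaparib), and also to 3 without I-732, S-761 and EIO-744 together. The list took 0.0507% of counts in IO-731, 0.0349% in I-736 (NC IR), 0.0258% in EIO-744 and 0.0151% in S-761 (NC sham), so it was high in tumours of 3 arms. Whether adjacent skin was collected with these tumours was not tested. The 6 genes called by DESeq2, Dsc3, Psapl1, Dct, Dsg1a, Krt15 and Fcgbp, were highest in EIO-744 and IO-731, except Fcgbp, which stood at 2.98 CPM in EIO-744, 2.97 CPM in S-761 and 1.45 CPM in IO-731. Dsc3, a desmosome protein gene, stood at 13.4 CPM in IO-731 and 11.3 CPM in EIO-744, at 7.47 CPM in I-736, and at 0 CPM in 8 tumours.

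Fibroblast genes had a median interaction of 1.28, with 11 of 20 members higher under olaparib and 1 without it. The shares of all genes called higher were 14.7% under olaparib and 4.15% without it. Col3a1, a fibrillar collagen gene, ran from 1186 through 2574 to 2968 CPM in sham, 1262 through 1423 to 2156 CPM in IR and 1871 through 2129 to 2421 CPM in olaparib tumours. In IR+olaparib tumours it ran from 1640 through 2090 to 43604 CPM, and the highest was EIO-744 (OE IR+olaparib). Its interaction of 2.18 ± 0.76 was 0.58 without that tumour, and the median of the list was 0.00 without it. Endothelial genes had a median interaction of 0.72, which was -0.13 without the same tumour. Skeletal muscle genes had a median of -1.57, which was 0.11 without I-732 (NC IR).

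Genes of other function with the smallest unadjusted p are given as values, none called. Rasd2 (chromosome 8, 75213944 to 75224113, mm10), a small GTPase of the Ras family, ran from 0.274 through 0.408 to 0.954 CPM in sham, 0.937 through 2.17 to 4.23 CPM in IR, 0.471 through 0.965 to 1.39 CPM in olaparib and 0.199 through 0.917 to 1.31 CPM in IR+olaparib tumours. IR tumours were the highest arm, with 1 of 6 below the highest sham tumour. It rose by 2.15 ± 0.44 without olaparib (edgeR adjusted p = 0.010) and stood at -0.23 ± 0.43 under it (edgeR adjusted p = 0.72). The interaction was -2.38 ± 0.61 (-3.66 to -1.10, unadjusted p = 0.00098), at -2.07 in NC and -2.68 in OE tumours, and stayed between -2.78 and -2.11 with single tumours left out. Trim62, a ubiquitin ligase gene, ran from 3.24 through 3.99 to 4.89 CPM in sham, 2.61 through 4.72 to 7.26 CPM in IR, 2.21 through 2.97 to 4.19 CPM in olaparib and 5.61 through 6.57 to 8.42 CPM in IR+olaparib tumours. IR+olaparib tumours lay above all olaparib tumours, and its interaction was 0.89 ± 0.27 (0.33 to 1.44), at 0.35 in NC and 1.42 in OE tumours. Decr1, an enzyme of unsaturated fatty acid oxidation, had 0.35 ± 0.11, from 34.0 to 39.4 CPM in IR and 37.3 to 49.8 CPM in IR+olaparib tumours. Rapgef1, a guanine nucleotide exchange factor gene, had -0.41 ± 0.13, from 145 to 208 CPM in IR and 133 to 170 CPM in IR+olaparib tumours. Mir17hg, the host gene of the miR-17-92 cluster, had -1.30 ± 0.47, from 0.854 to 3.60 CPM in IR and 0.819 to 2.04 CPM in IR+olaparib tumours. Tsc1, an inhibitor of mTOR signalling, had -0.45 ± 0.16. Vmp1, the host gene of miR-21, had -0.02 ± 0.22 (-0.48 to 0.43).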

How the data were processed

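RNA sequencing of whole tumours gave the deposited table, in which the authors list raw read counts per gene, without normalization, for 27368 genes in 24 tumours. Per the submitters' processing notes, fastp, HISAT2 and HTSeq were used with mm10, and versions and strand setting are not given in the sources used here. Genes that overlap, lie antisense or have near-identical copies therefore have uncertain counts. Replicate tumours differed beyond sampling noise (lowest chi-square per gene 13.6).

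Counts were tested with edgeR 4.0.16 in R 4.3.3 (TMM, filterByExpr, quasi-likelihood, 8 group means, 16 residual degrees of freedom, Benjamini-Hochberg adjustment over 16560 genes, threshold 0.05). SE is the size of the log2 fold change over the square root of F. Alternatives used DESeq2 1.42.0, limma 3.58.1 and other filters, designs, labels and tumours, all named in the closing section. Scripts were tested on simulated data. The members, the 44 gene lists (927 entries, 12 not found, 28 by an older symbol) and the alternatives were chosen with earlier results of these data known. Genes are named as the 12 called genes of largest interaction in each direction, filled by smallest unadjusted p at a mean of at least 1 CPM since none was called, with up to 3 members of each list by smallest interaction p and a fixed set. Other cholesterol genes and Dsc3, Dct and Fcgbp were named after their values were seen. No paired analysis was possible because no 2 groups share replicate numbers. Some list members are counted but not reported here by name.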

Additional observations from a re-analysis of the deposited data

How the results depend on the processing

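The interaction of radiation and olaparib kept 0 called genes with DESeq2 size factors, limma voom, no filter, written labels, an additive cell line term, without 3 tumours of unlike composition (I-732, S-761 and EIO-744) and with each tumour left out, and had 6 with the DESeq2 test (774 at an unadjusted p below 0.05, 694 by limma). The DESeq2 test gave 13 for the interaction in OE tumours and 49 for the difference between OE and NC. Radiation without olaparib, 1340 genes, had 2438 with the DESeq2 test, 7124 with limma voom, 740 without a filter and 0 with the written labels. Radiation under olaparib, 4116 genes, had 2566 from the groups compared alone, 5032 with the DESeq2 test, 6072 with limma voom (fewer than without olaparib), 3207 without a filter and 0 with the written labels. Leaving out each tumour gave 314 to 3324 genes without olaparib and 2245 to 5931 under it, and 0 to 0 for the interaction, in NC, in OE and for their difference. In S-761 the fibroblast list took 0.406% of counts, the lowest share among sham tumours, whose median was 0.813%. I-739 was not among the 3 tumours left out together. Its limma quality weight was 0.179, beside 0.0768 in EIO-744, 0.235 in S-761 and 0.529 in I-732. Without the 3 tumours 1766 genes were higher and 2019 lower under olaparib. The cause was not tested. Of the 177 named genes, the interactions of Dsg1a, Krt15 and Psapl1 passed the threshold in the DESeq2 test only, and no called value changed sign. Low-count genes (the median half-width was 0.63 over all genes and 0.50 at 1 CPM or more) limit what these 24 tumours can show.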
